A study of Mus musculus with 4 samples.

Results

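The 10 genes described here, P2rx7, Ddr2, Gad2, Ceacam10, Tenm4, Tspan18, Parp3, Ache, Gm17619 and 2210417A02Rik, had few reads in young intestinal stem cells (ISCs) and more in old ISCs. They were taken by name from a table of 52459 genes, and were chosen by their raw counts in the young and the old ISC pools. Their differences with age are therefore given as a description, without a test. The libraries came from WT mice of the C57/Bl6 strain, aged 2 months (ISC_2mth) or 22 months (ISC_22mth), with 2 libraries per age, each from ISCs of 5 pooled animals. No treatment or transgene is named in the labels. Cells were isolated with the SM6 strategy, a sort on surface markers that keeps EPCAM+ cells with high EPHB2 and CD44 and leaves out cells carrying CD31 or CD45. The RNA went through SPIA (NuGen), an isothermal amplification, with sequencing along the full length of transcripts, and the deposited values are raw reads per gene.

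ISCs at the crypt base divide throughout life and supply every other cell of the intestinal epithelium. Genes belonging to other lineages, such as neurons, connective tissue or blood cells, are held at very low levels in stem cells, so that a few reads decide whether such a gene is seen. The 8 protein-coding genes fall into 4 roles: receptors for signals from outside the cell (P2rx7 and Ddr2), enzymes of neurotransmitters (Gad2 and Ache), proteins of the cell surface or of cell adhesion (Ceacam10, Tenm4 and Tspan18), and an enzyme of DNA repair (Parp3). Gm17619 and 2210417A02Rik are long noncoding RNAs to which no function is assigned here.

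Between 11662654 and 15975698 reads were counted per library. Of these, 62.6 and 65.7% in young pools and 72.9 and 73.8% in old pools lay on mitochondrially encoded genes, which left between 3852178 and 4593004 reads on all other genes. Counts were scaled with the TMM method and given as CPM (reads scaled to a common library size). Old and young pools were set against each other in edgeR (quasi-likelihood test), with p-values adjusted over 13692 genes (FDR). All 14 markers of crypt base stem cells, Lgr5, Ascl2 and Olfm4 among them, were read at both ages, and their summed level was 3783 and 3601 CPM in young and 3525 and 3821 CPM in old pools, most of it from Olfm4 and Slc12a2. None of the 14 was called by edgeR's test, but 6 had an unadjusted p under 0.05, against 2316 of the 13692 genes tested. Voom called 2, DESeq2 1 and the likelihood ratio test 2. Axin2 (log2 fold change -0.46, FDR = 0.051), Ephb2 (-0.52, FDR = 0.058) and Rnf43 (-0.41, FDR = 0.088), named after their values were seen, were nearest to the threshold in the edgeR fit, while Ascl2 (0.33, FDR = 0.20) and Slc12a2 (0.25, FDR = 0.19) had values of the other sign. Replicates are pools of different animals, and in these bulk libraries more cells expressing a gene and more RNA per cell cannot be told apart.

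The promoters of 5 of the genes are shown, because the genes share a low level in young ISCs but differ widely in the CG dinucleotides (CpG) near their start. Each is the 300-base RefSeq promoter of build GRCm38.p6, 250 bases before to 50 bases after the start, written 5′ to 3′ on the strand of the gene with each CpG in capitals. 2210417A02Rik had the most reads, Gm17619 is the other noncoding gene, Ddr2 has the fewest CpG of the promoters listed, Ache the most, and P2rx7 carries the most different motifs of those searched. They lie at chr5:148741590-148741889 on the plus strand, chr2:170194004-170194303 on the minus strand, chr1:170088895-170089194 on the minus strand, chr5:137288004-137288303 on the plus strand and chr5:122643677-122643976 on the plus strand, in that order.
2210417A02Rik: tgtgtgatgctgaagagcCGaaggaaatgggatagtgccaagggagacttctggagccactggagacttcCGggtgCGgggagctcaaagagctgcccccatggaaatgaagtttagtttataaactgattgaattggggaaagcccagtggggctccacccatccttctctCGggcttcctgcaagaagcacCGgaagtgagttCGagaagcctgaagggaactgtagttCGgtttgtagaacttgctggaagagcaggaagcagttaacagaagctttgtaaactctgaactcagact
Gm17619: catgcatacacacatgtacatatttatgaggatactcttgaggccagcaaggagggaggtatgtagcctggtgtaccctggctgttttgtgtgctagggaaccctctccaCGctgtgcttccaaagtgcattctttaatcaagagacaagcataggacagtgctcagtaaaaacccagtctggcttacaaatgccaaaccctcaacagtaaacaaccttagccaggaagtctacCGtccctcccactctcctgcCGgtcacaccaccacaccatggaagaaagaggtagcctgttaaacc
Ddr2: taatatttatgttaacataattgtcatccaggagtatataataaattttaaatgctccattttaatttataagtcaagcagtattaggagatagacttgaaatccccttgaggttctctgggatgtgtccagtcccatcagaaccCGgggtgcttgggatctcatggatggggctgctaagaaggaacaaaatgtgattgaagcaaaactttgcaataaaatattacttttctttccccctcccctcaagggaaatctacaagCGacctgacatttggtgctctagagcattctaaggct
Ache: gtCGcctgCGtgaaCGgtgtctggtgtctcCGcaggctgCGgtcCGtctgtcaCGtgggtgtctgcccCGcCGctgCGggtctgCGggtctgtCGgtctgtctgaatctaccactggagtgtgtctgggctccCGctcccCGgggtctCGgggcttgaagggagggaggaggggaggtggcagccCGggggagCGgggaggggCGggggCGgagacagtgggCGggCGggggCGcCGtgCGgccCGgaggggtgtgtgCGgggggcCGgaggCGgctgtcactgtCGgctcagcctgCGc
P2rx7: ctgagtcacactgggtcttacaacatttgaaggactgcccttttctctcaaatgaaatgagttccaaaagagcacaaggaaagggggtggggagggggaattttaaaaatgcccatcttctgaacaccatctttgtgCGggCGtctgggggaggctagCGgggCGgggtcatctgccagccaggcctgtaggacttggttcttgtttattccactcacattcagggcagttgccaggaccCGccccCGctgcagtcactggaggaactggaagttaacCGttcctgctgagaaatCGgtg

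Of the 10 genes, 9 had a RefSeq promoter, 12 promoters in all, and Tspan18 had none. The start used for Ddr2 lies inside the gene, 21.8 kb downstream of the 5′ end in GENCODE vM21, and so do the second starts of P2rx7 (6.5 kb) and Tenm4 (40.4 kb). The 2 promoters of Ceacam10 overlap over most of their length. The number of CpG per promoter was lowest in Ddr2, with 2, and Gm17619, with 3. Ceacam10 had 4 in both promoters, P2rx7 had 8 and 4, Tenm4 had 6 and 12, and 2210417A02Rik had 7. Gad2 had 14, Parp3 16 and Ache 30. The median was 6.5 over the 12 promoters, against 20 over 12068 promoters of genes tested and 7 over all 32851 promoters used. Apart from Ache, each promoter lay below the median of promoters of genes tested, while against the median of all promoters they lay on either side.

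**Figure D1:**
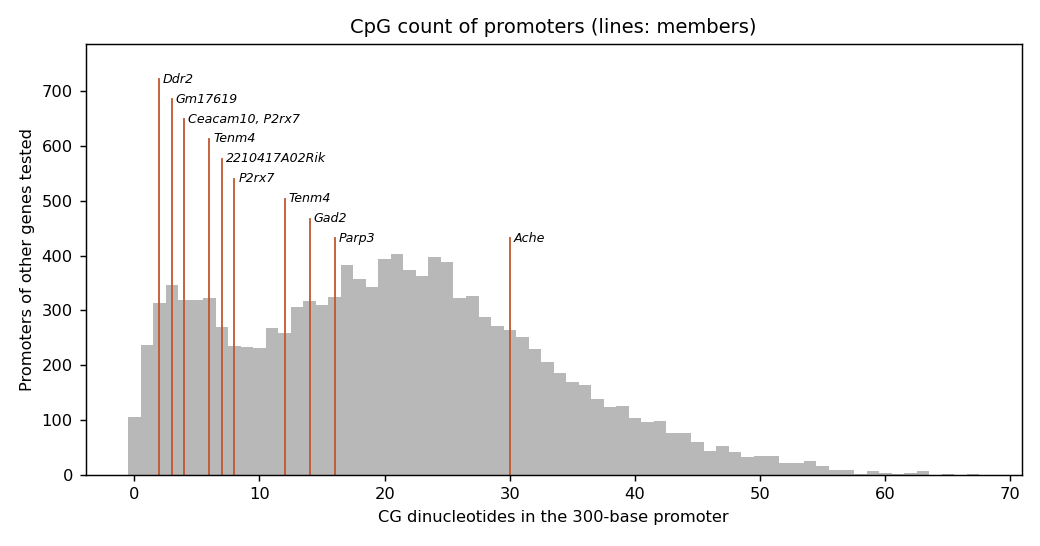
Histogram of the number of CG dinucleotides in the 300-base promoters of other genes tested (grey bars, number of promoters), with orange lines at the promoters of the genes described. Ddr2 and Gm17619 stand at 2 and 3, and Ache stands alone at 30.

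Motifs were searched on both strands by their letters. TATAAA occurred in 2 of the 12 promoters (13.6% of all promoters hold it), TGANTCA, the AP-1 site, in 1 (7.81%), TGACNNNGC, bound by NFE2L2, in 5 (12.4%), GCGGGGGCG, bound by EGR1, in 2 (2.91%), a pair of GAAA with any 2 bases between them, bound by interferon regulatory factors, in 1 (3.44%), and CCAAT in 3 (37.4%). TGANTCA and TGACNNNGC can match the same bases, but did so in none of the 12 promoters. The promoter of P2rx7 held 3 of them, TGANTCA from -249, TGACNNNGC from -88 and GCGGGGGCG from -10, counted from the start. In Ache GCGGGGGCG occurred from -48 and from -25. TATAAA matched 2210417A02Rik from -133 and from -131, once on each strand over the same stretch, and Ddr2 from -185. The TGACNNNGC matches of the 2 Ceacam10 promoters are the same bases. A match of letters is not evidence of binding.

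Before normalization, 8 of the 10 genes had between 2 and 21 reads over both young pools, whereas Ache had 45 and 2210417A02Rik 58. In the old pools the sums lay between 65 reads for Gm17619 and 376 for 2210417A02Rik. By rank among the 52459 genes listed, the young level ran from 10776 for 2210417A02Rik to 19710 for Ddr2, where 22776 genes had at least 1 read in young pools. The old level ran from rank 4749 for 2210417A02Rik to 10011 for Gm17619. P2rx7 and Ddr2 had no read in 1 young pool, which allows up to 3 reads there, and each of the 10 genes was read in every other library. The term near-silent therefore fits Ache and 2210417A02Rik least.

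**Figure D2:**
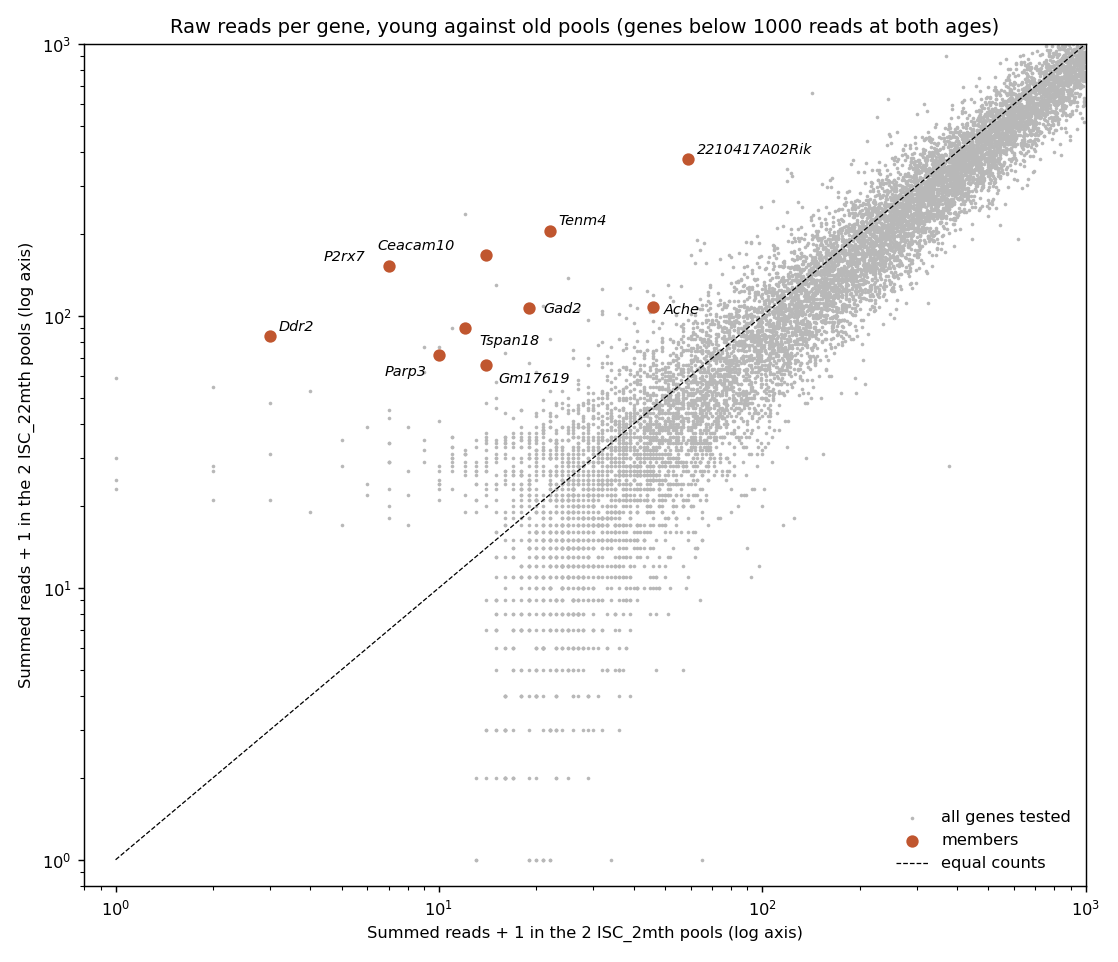
Summed raw reads plus 1 per gene in the ISC_2mth pools (horizontal, log axis) and the ISC_22mth pools (vertical, log axis) for the 11368 genes tested with fewer than 1000 reads at both ages, with the 10 genes in orange. All 10 lie above the dashed line of equal counts, with Ddr2 at 2 against 83 reads farthest from it and Ache at 45 against 107 nearest to it.

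In each of the 10 genes the lower old pool exceeded the higher young pool, a pattern found in 24.0% of the genes tested. FDR was under 0.05 for 10 of 10, against 1.63% of all genes tested in this direction and 2.26% in either, and neither count says anything new because the genes were listed from this contrast. To be tested a gene needed, in some library, a count above 5 and a level above 1 CPM. Gad2, Ache and 2210417A02Rik passed it in a young pool, and the other 7 passed it only through the old pools, so that they could enter the test only by being higher there. The log2 fold changes of all 10 genes ran from 1.46 to 5.44, with a median of 3.18, against a median of -0.0049 over all genes tested.

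**Figure D3:**
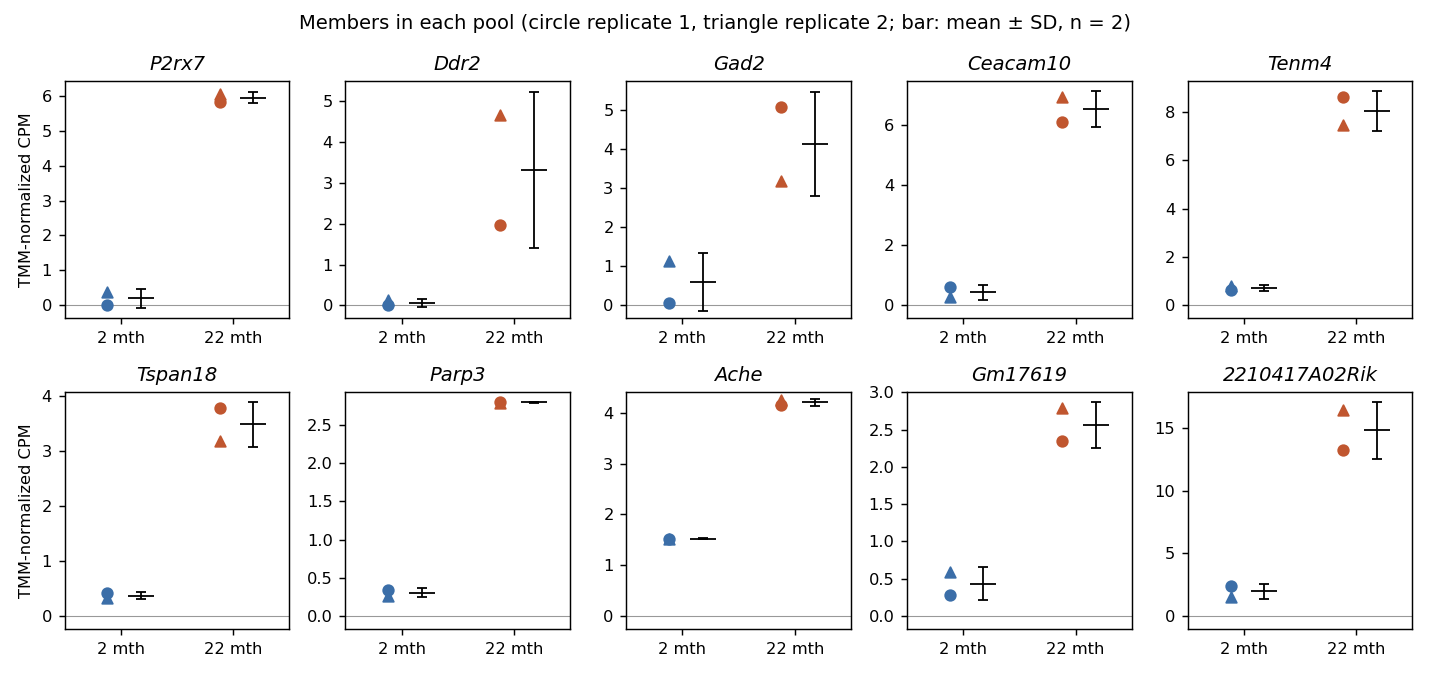
TMM-normalized CPM of each of the 10 genes in each pool, ISC_2mth in blue and ISC_22mth in orange, circles for replicate 1 and triangles for replicate 2, with the mean and SD of the 2 pools beside them. In every panel both orange points lie above both blue points, and as a ratio the old pools lie farthest apart in Ddr2 (1.97 and 4.67 CPM) and Gad2 (5.07 and 3.19 CPM).

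P2rx7 encodes an ion channel of the cell surface that opens when ATP is released outside the cell, and in immune cells its opening activates the NLRP3 inflammasome. It had 0 and 6 reads in the young pools and 77 and 74 in the old pools. The old pools were nearly alike and far above both young pools. Normalized expression was 0.199 ± 0.281 CPM (mean ± SD, n = 2 pools) in young and 5.94 ± 0.165 CPM (n = 2) in old ISCs, a ratio of summed reads of 29.3 with a 95% counting interval of 13.1 to 81.1. Such intervals take each read as independent and leave out the spread between pools. Amplified reads carry no molecular identifiers here, so the intervals can be too narrow. The log2 fold change was 4.82 (standard error 0.60), and it was 3.87 without ISC_2mth replicate 1 and 9.31 without ISC_2mth replicate 2, where the remaining young pool had no read and the value depends on the fit. In the GENCODE vM21 annotation of GRCm38 the gene lies on chromosome 5 from 122643911 to 122691432, and its exons hold those of the microRNA gene Mir8115 on the same strand over 119 bp. Of the marker list of leukocytes, 11 of 22 genes, with Cd3d, Itgax and Adgre1 among them, had no read in any library, and the list summed to 6.07 and 4.51 CPM in young and 5.22 and 2.78 CPM in old pools. Most of these reads lay on Cd68, with 63 and 41 in young and 30 and 22 in old pools, while Cd8a had 1 and 0 against 4 and 3. Ptprc, which encodes CD45, had 0 and 0 against 2 and 0. Csf1r had 4 and 3 against 2 and 1, Laptm5 0 and 7 against 1 and 0, and Coro1a 7 and 4 against 1 and 0. Outside the list, and named after their values were seen, Ccr2 had 0 and 0 reads in young and 13 and 16 in old pools, Itgam 148 and 196 against 254 and 252, Cd74 63 and 79 against 298 and 363, and H2-Aa 12 and 8 against 32 and 76. These 4 genes were called higher in the edgeR fit (FDR = 0.034, 0.030, 9.7e-07 and 0.011 in that order). Ccr2 entered that test only through the old pools, so it could only come out higher. The part of leukocytes in the P2rx7 counts was not tested.

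Related genes of purinergic signalling and the inflammasome, from lists written with earlier results of these data known, were looked at in the same fit. Of 26 genes, 12 were tested, and 1 was called higher and 0 lower, against 1.63% and 0.628% of all genes tested, and 3 had an unadjusted p under 0.05. Casp1, the protease that the inflammasome activates, had 570 and 701 reads in young and 819 and 840 in old pools. It rose by 0.61 on the log2 scale (standard error 0.13, quasi-likelihood FDR = 0.022, edgeR). The adaptor Pycard (log2 fold change 0.33, FDR = 0.21) and the nucleotide receptor P2ry1 (0.11, FDR = 0.79) did not pass, and 12.8% and 23.1% of their exonic bases respectively are shared with a gene on the opposite strand. Pycard passed without ISC_22mth replicate 1 (0.49, FDR = 0.0082) and was at 0.15 without ISC_22mth replicate 2. The median of the 12 genes was 0.060. P2rx4, another ATP-gated channel and the neighbour of P2rx7 at 16.1 kb, had 152 and 225 reads in young and 140 and 146 in old pools, a log2 fold change of -0.17 (FDR = 0.73) that was 0.10 without ISC_2mth replicate 2.

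Ddr2 encodes a receptor tyrosine kinase that responds to fibrillar collagen and is known from connective tissue. Its reads were 0 and 2 in the young pools and 26 and 57 in the old pools. Young pools were at or near 0, and the old pools differed from each other by 2.37 times in CPM, the largest ratio between old pools among the 10 genes. Expression was 0.0663 ± 0.0937 CPM in young and 3.32 ± 1.91 CPM in old ISCs (n = 2 pools each). The ratio of summed reads was 48.3, and its 95% counting interval of 12.95 to 405 shows how little the 2 young reads fix it. The log2 fold change of 5.44 (standard error 0.87) was 4.55 without ISC_2mth replicate 1, 8.46 without ISC_2mth replicate 2, 5.94 without ISC_22mth replicate 1 and 4.70 without ISC_22mth replicate 2. Ddr2 lies on chromosome 1 from 169972307 to 170110762. Markers of fibroblasts and muscle summed to 3.59 and 4.31 CPM in young and 2.88 and 1.64 CPM in old pools, and 4 of the 14, Col1a2, Col3a1, Pdgfra and Des, had no read in any library. Pdgfrb had 28 and 31 reads in young and 17 and 2 in old pools, Vim had 5 and 20 against 4 and 7, Acta2 had 1 and 2 against 8 and 5, and Col1a1 had 2 and 0 against 1 and 0. The part of such cells in the Ddr2 counts was not tested.

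In the list of discoidin receptors, collagens, collagen-binding integrins and matrix enzymes, 8 of 22 genes were tested. Of these 0 were called higher and 0 lower, against 1.63% and 0.628% of all genes tested (1 at an unadjusted p under 0.05, 0 by voom and 0 by DESeq2). The integrins Itga2, Itga1 and Itgb1, which bind collagen, had log2 fold changes of 0.082, -0.067 and 0.020 (FDR = 0.79, 0.85 and 0.96 by edgeR's quasi-likelihood test). Among all genes tested, 2316 had an unadjusted p under 0.05 by this test. The direction for Itga1 and Itgb1 changed with the library left out, between -0.24 and 0.089 and between -0.19 and 0.21. The median of the 8 genes was -0.023.

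Gad2 makes the neurotransmitter GABA from glutamate. It had 1 and 17 reads in the young pools and 67 and 39 in the old pools. The young pools differed more than those of any other gene read in both, by 16.3 times in CPM, and the higher of them still lay below both old pools. Expression was 0.598 ± 0.748 CPM in young and 4.13 ± 1.33 CPM in old ISCs (n = 2 pools each), a ratio of summed reads of 6.85 (95% counting interval 4.13 to 12.01). The log2 fold change of 2.76 (standard error 0.62) was 1.87 without ISC_2mth replicate 1 and 5.72 without ISC_2mth replicate 2, so that its size rests on the young pool taken. Gad2 lies on chromosome 2 from 22622205 to 22693874, with no other gene over its exons. Enteroendocrine markers, 16 genes that were all read at both ages, summed to 45.3 and 162 CPM in young and 151 and 101 CPM in old pools. Of 11 tested, 1 was called higher, Sst, against 1.63% of all genes tested. Sst had 7 and 7 reads in young and 120 and 9 in old pools, and entered the test only through an old pool. An unadjusted p under 0.05 was seen in 3 of the 11, against 2316 of 13692 genes tested. Voom called 0, DESeq2 0 and the likelihood ratio test 2. Chgb gave most reads of the list, and without it, a choice made after seeing the data, the list summed to 23.7 and 52.1 CPM in young and 60.0 and 38.8 CPM in old pools. In that sum ISC_2mth replicate 2 lay between the old pools, and the Sst reads add to ISC_22mth replicate 1 above all. The part of these cells in the Gad2 counts was not tested.

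Among genes of GABA synthesis, transport and reception, 5 of 29 were tested, with 0 called in either direction by edgeR's test (0 at an unadjusted p under 0.05, 0 by voom and 0 by DESeq2) and a median log2 fold change of 0.096. Aldh5a1 and Abat, both of which break GABA down, had 0.096 (FDR = 0.79) and 0.17 (FDR = 0.60), and the receptor subunit Gabbr1 had -0.36, all by edgeR's quasi-likelihood test. Gabbr1 was at -0.80 without ISC_22mth replicate 1 and at -0.033 without ISC_22mth replicate 2. Of the exonic bases of Aldh5a1, 14.1% lie under a gene of the opposite strand.

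Ache encodes acetylcholinesterase, which ends the signal of acetylcholine. It had 22 and 23 reads in the young and 55 and 52 in the old pools, the smallest fold difference of the 10 genes, with replicates nearly alike at both ages. Expression was 1.52 ± 0.0044 CPM in young and 4.21 ± 0.0684 CPM in old ISCs (n = 2 pools each). The ratio of summed reads was 2.77 (95% counting interval 1.94 to 4.01), and the log2 fold change was 1.46 (standard error 0.38), between 1.45 and 1.48 with any 1 pool left out. The gene lies on chromosome 5 from 137287519 to 137294466, and its exons overlap Gm42456 on the opposite strand over 98 bp. Red blood cells, which carry the enzyme, gave no read on the globin genes Hba-a1, Hba-a2, Hbb-bs and Hbb-bt, and their 9 markers summed to 3.31 and 2.58 CPM in young and 3.56 and 2.05 CPM in old pools. Of 14 markers of enteric neurons 10 had no read in any library, and their sums are given with Tenm4. The part of either cell type in the Ache counts was not tested.

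The cholinergic list held 29 genes, of which 7 were tested, 1 was called higher and 0 lower (2 at an unadjusted p under 0.05), against 1.63% and 0.628% of all genes tested, and the list median on the log2 scale was -0.029. Bche, the other cholinesterase, had 897 and 1020 reads in young and 1272 and 1291 in old pools and rose by 0.64 on the log2 scale (standard error 0.12, quasi-likelihood FDR = 0.0099, edgeR). Per kb of exon, Bche stood at 15.0 ± 0.994 CPM in old ISCs against 0.911 ± 0.0148 CPM for Ache. The choline transporter Slc44a1 (log2 fold change 0.37, FDR = 0.13) and the muscarinic receptor Chrm3 (-0.14) did not pass, and Slc44a1 did without ISC_22mth replicate 2 (0.48, FDR = 0.0074). Chat, which makes acetylcholine, had no read in any library.

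Ceacam10 belongs to the carcinoembryonic antigen-related cell adhesion molecules. Reads were 9 and 4 in the young and 81 and 85 in the old pools, with no overlap and old pools nearly alike. Expression was 0.443 ± 0.252 CPM in young and 6.55 ± 0.588 CPM in old ISCs (n = 2 pools each), and the ratio of summed reads was 14.9 (95% counting interval 8.45 to 28.5). The log2 fold change of 3.87 (standard error 0.44) was 4.58 without ISC_2mth replicate 1 and 3.37 without ISC_2mth replicate 2. Ceacam10 lies on chromosome 7 from 24777206 to 24784657, and Ceacam1 or Ceacam2 share 3.00% of its 50-nt stretches.

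Of 14 other members of the family 1 was tested. Ceacam1, a far more abundant adhesion molecule of the epithelium, had 4352 and 4590 reads in young and 5344 and 5400 in old pools, a rise of 0.49 on the log2 scale (standard error 0.11, quasi-likelihood FDR = 0.022, edgeR). With 30.4% of its 50-nt stretches found in other genes, mainly Ceacam2, its count is uncertain. Under scaling by total counts its value was -0.0047, 0.49 above the shift of all genes there.

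Tenm4 is a teneurin, a very large membrane protein through which cells, neurons above all, recognise each other. It had 9 and 12 reads in young and 114 and 91 in old pools, and the old pools stood clear of the young ones. Expression was 0.708 ± 0.123 CPM in young and 8.04 ± 0.830 CPM in old ISCs (n = 2 pools each). The log2 fold change was 3.49 (standard error 0.36), and the ratio of summed reads was 11.4 (95% counting interval 7.24 to 18.7). The gene spans chromosome 7 from 96171246 to 96911093, and 988 bp of its 21021 exonic bases are shared with C230038L03Rik on the opposite strand. Enteric neuron markers summed to 0.414 and 1.33 CPM in young and 2.42 and 1.06 CPM in old pools, and Elavl4, Stmn2 and Gap43 were at 0 throughout. Of the neuron markers that were read, Snap25 had 1 and 10 reads in young and 20 and 6 in old pools (log2 fold change 1.43, FDR = 0.49 by edgeR). Elavl3 had 0 and 1 against 2 and 4, Ret 5 and 9 against 9 and 3, and Tubb3 0 and 0 against 1 and 0. The part of neurons in the Tenm4 counts was not tested. Of 14 other teneurins and their receptors 6 were tested, with 0 called higher or lower, against 2.26% of all genes tested. Of the 6, 2 had an unadjusted p under 0.05, against 2316 of 13692 genes tested, and 0 were called by voom and 0 by DESeq2. Their median log2 fold change was -0.65, opposite in sign to Tenm4, and in 5 of the 6 both old pools lay below both young pools, as in 23.6% of all genes tested. Adgrl2, a latrophilin that binds teneurins, had -0.33 (FDR = 0.29), Adgrl1 had -0.58, with 12.9% of its exonic bases under the opposite-strand gene Gm10644, and Flrt3 had 0.21.

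Tspan18 is a tetraspanin, a small protein with 4 membrane passes that organises other proteins of the cell surface. Reads were 6 and 5 in young and 50 and 39 in old pools, again without overlap. Expression was 0.373 ± 0.0584 CPM in young and 3.49 ± 0.417 CPM in old ISCs (n = 2 pools each), a ratio of summed reads of 9.41 (95% counting interval 5.02 to 19.5) and a log2 fold change of 3.20 (standard error 0.55). The gene lies on chromosome 2 from 93201760 to 93334505. Of 31 other names in the tetraspanin family list 18 were tested, with 0 called, against 2.26% of all genes tested in either direction. Of the 18, 3 had an unadjusted p under 0.05, against 2316 of 13692 genes tested, and 0 were called by voom and 0 by DESeq2. The median log2 fold change of the list was 0.092. Tspan8, Cd81 and Tspan3, which had the highest mean CPM before division by length, had 0.38, -0.14 and 0.16 (FDR of Tspan8 0.13). Tspan8 passed without ISC_22mth replicate 2 (0.49, FDR = 0.0090), and Cd81 ran from -0.26 to -0.016 with 1 pool left out. The log2 fold changes of these 18 genes ran from -0.97 to 1.32. Of the 50-nt stretches of Tspan18, 4.26% occur in other genes.

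Parp3 attaches ADP-ribose to proteins at DNA double strand breaks. It had 5 and 4 reads in the young and 37 and 34 in the old pools, nearly the same in both replicates at either age. Expression was 0.305 ± 0.0565 CPM in young and 2.79 ± 0.0109 CPM in old ISCs (n = 2 pools each), with a ratio of summed reads of 9.18 (95% counting interval 4.57 to 20.9) and a log2 fold change of 3.16 (standard error 0.62). It lies on chromosome 9 from 106470322 to 106476949 and shares 20 exonic bp with Rrp9 on the opposite strand. Of 29 PARP and end joining genes 28 were tested, with 0 called, against 2.26% of all genes tested in either direction. Voom called 0, DESeq2 0 and the likelihood ratio test 4. An unadjusted p under 0.05 was seen in 6 of the 28, against 2316 of 13692 genes tested. The median log2 fold change of the list was 0.087. Parp1, which also attaches ADP-ribose at DNA breaks, had 899 and 970 reads in young and 606 and 563 in old pools, a log2 fold change of -0.46 that did not pass (standard error 0.13, quasi-likelihood FDR = 0.068, edgeR). It passed by the likelihood ratio test (FDR = 0.035), with the replicate number as a block (FDR = 0.039), without a filter (FDR = 0.040) and without ISC_22mth replicate 2 (FDR = 0.046). Without ISC_2mth replicate 1 its log2 fold change was -0.48 (FDR = 0.27). Tnks2 and Zc3hav1 had 0.25 and 0.13. Xrcc5 (0.59, FDR = 0.060) and Lig4 (0.95, FDR = 0.064), named after their values were seen, missed the threshold of edgeR's quasi-likelihood test in the direction opposite to Parp1.

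The 2 noncoding genes each have 2 exons and no overlapping gene, and none of their 50-nt stretches occurred in transcripts of other genes. 2210417A02Rik, on chromosome 5 from 148741840 to 148743139, had 35 and 23 reads in young and 175 and 201 in old pools, the most of the 10 genes at both ages. Expression was 1.97 ± 0.630 CPM in young and 14.9 ± 2.28 CPM in old ISCs (n = 2 pools each), a ratio of summed reads of 7.54 (95% counting interval 5.71 to 10.1) and a log2 fold change of 2.91 (standard error 0.27). Gm17619, on chromosome 2 from 170192449 to 170194053, had 4 and 9 reads in young and 31 and 34 in old pools. That is 0.436 ± 0.227 CPM in young and 2.57 ± 0.310 CPM in old ISCs (n = 2 pools each), a ratio of 5.82 (95% counting interval 3.18 to 11.5). Its log2 fold change of 2.52 (standard error 0.62) was 2.09 without ISC_2mth replicate 1 and 3.17 without ISC_2mth replicate 2.

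Levels of different genes can be set side by side only per length. Per kb of exon, 2210417A02Rik stood highest in old ISCs, at 27.0 ± 4.14 CPM (mean ± SD, n = 2), followed by Ceacam10 at 4.38 ± 0.393 and Gm17619 at 1.77 ± 0.214. P2rx7 was at 0.996 ± 0.0277, Ache at 0.911 ± 0.0148, Parp3 at 0.755 ± 0.0029 and Gad2 at 0.703 ± 0.226, and the pools of Parp3 lay within those of Gad2. Tspan18 (0.427 ± 0.0510), Tenm4 (0.383 ± 0.0395) and Ddr2 (0.358 ± 0.206) overlapped each other. The median of all genes tested was 2.12 CPM per kb in old and 2.17 in young ISCs. Thus 2210417A02Rik and Ceacam10 exceeded that median in old ISCs, and 2210417A02Rik, at 3.58 ± 1.15, already did so in young ISCs. The exonic length of the 10 genes ran from 550 to 21021 bp with a median of 5249.5, against 4125.5 over 13236 genes tested that matched the annotation, and the GC content of their longest transcript had a median of 48.9% against 48.7%.

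The genes lie on 5 chromosomes, and the nearest gene that passed the filter on each side was read beside them. Not all of these lie close by: Gm15501 is 2987.1 kb from Tenm4, Ubl3 189.1 kb from 2210417A02Rik and Tex264 181.8 kb from Parp3. Of these 20 neighbours, 0 were called higher and 1 lower in old ISCs, against 1.63% and 0.628% of all genes tested, and their median log2 fold change was 0.17. The one called, Trp53i11, lies directly beside Tspan18 and went the opposite way, with 275 and 266 reads in young and 79 and 136 in old pools. It fell by 1.10 on the log2 scale (standard error 0.23, quasi-likelihood FDR = 0.017, edgeR). Its log2 fold change was -0.71 without ISC_22mth replicate 1 and -1.61 without ISC_22mth replicate 2. Ufsp1, 163 bp from Ache, had 49 and 49 reads in young and 80 and 85 in old pools, a log2 fold change of 0.97 that missed the threshold (FDR = 0.079). It passed by the likelihood ratio test (FDR = 0.036), with the replicate number as a block (FDR = 0.045) and without ISC_22mth replicate 1 (FDR = 0.044), and without that pool 4 of the 20 neighbours were called. Both neighbours of Gad2, named after their values were seen, were higher in both old pools without passing. Gm13339 had 7 and 10 against 19 and 15 reads (FDR = 0.42), and Apbb1ip had 5 and 5 against 21 and 7 (FDR = 0.36).

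**Figure D4:**
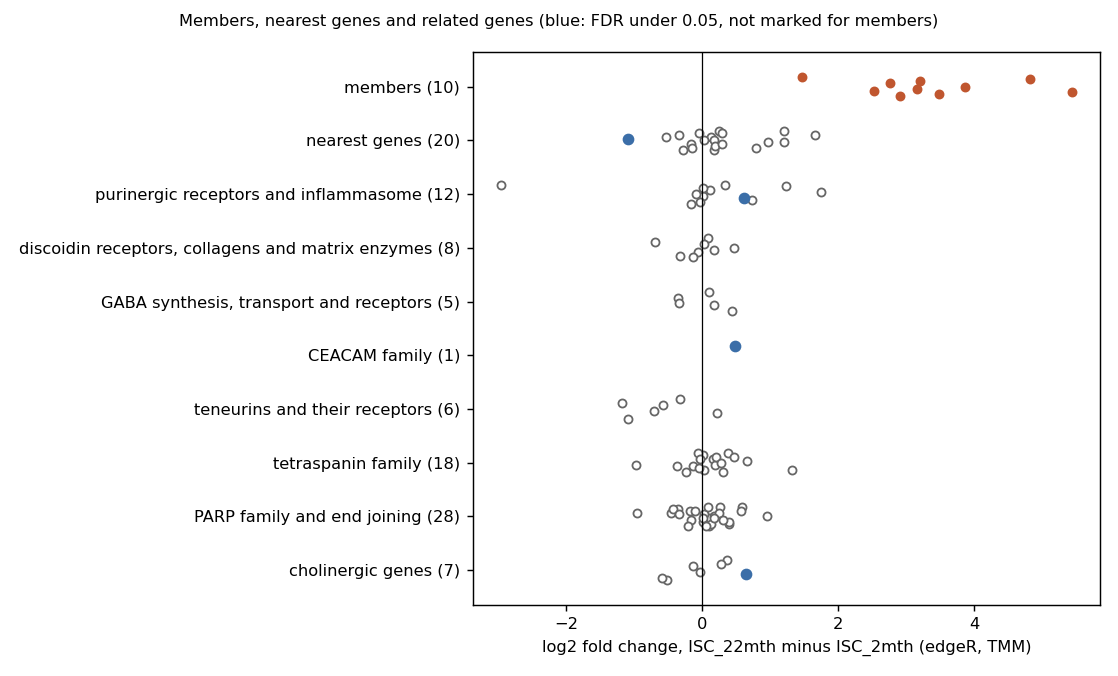
Log2 fold change between old and young ISCs (horizontal) of the 10 genes (orange), their nearest genes and the tested genes of each related list (open circles, blue where FDR was under 0.05), with the number of genes in brackets. Of the 85 related genes tested 3 are blue and higher, and 1 of the 20 nearest genes is blue and lower.

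Over all 8 lists, 3 of 85 related genes tested were called, all higher, against 1.63% of all genes tested, and their median log2 fold change was 0.029. All 3, Casp1, Ceacam1 and Bche, were abundant genes with changes below 0.65 on the log2 scale. Without ISC_2mth replicate 1 none of the 3 was called (FDR = 0.27 for Casp1, 0.16 for Ceacam1 and 0.087 for Bche), with log2 fold changes of 0.49, 0.48 and 0.58, and without ISC_2mth replicate 2 Ceacam1 was not (FDR = 0.090).

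The number of other genes with such counts was taken over the whole table. With at most 58 reads over the young pools and at least 65 over the old pools, the limits that the 10 genes themselves set, 122 other genes of the 52459 qualified, and 540 did with the ages exchanged. Since these limits come from different genes, they also admit genes that barely differ. With 1 pool left out the counts ran from 84 without ISC_2mth replicate 1 to 411 without ISC_22mth replicate 2, and from 298 to 905 with the ages exchanged, without the same pools. With libraries scaled to the smallest they were 122 and 1243. When the ratio of the smallest case, 2.77 for Ache, was also required, a choice made after seeing the data, 29 other genes and 33 in the exchanged direction were left. The most read of the 122 were Ifi44, mt-Tc, BC064078, Sst and mt-Tm. Ifi44, an interferon-induced gene, had 8 and 3 reads in young but 224 and 12 in old pools, and Sst, the hormone somatostatin, had 7 and 7 against 120 and 9. In both, 1 old pool carried nearly all reads. The old pools of mt-Tc, with 109 and 28 reads against 8 and 16 in young pools, also lay apart. Those of mt-Tm, with 59 and 69 reads, and of BC064078, with 41 and 88, lay closer together, and those of the 10 genes differed by at most 2.37 times in CPM. In the exchanged direction the most read were Slc28a2, with 199 and 178 against 13 and 14 reads, Gm44423, Amotl1, Cux2 and Fosb, and 35.4% of the 50-nt stretches of Slc28a2 occur in another gene.

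Some markers of other cells of the epithelium were called in the same fit. Enterocyte markers summed to 542 and 662 CPM in young and 1100 and 915 CPM in old pools, with 4 of 12 called higher (Fabp1, Fabp2, Sis and Rbp2), against 1.63% of all genes tested. Voom called 5 of the 12, DESeq2 2 and the likelihood ratio test 6. Paneth cell markers summed to 1075 and 843 CPM in young and 2438 and 972 CPM in old pools, with 3 of 10 called higher (3 by voom and 0 by DESeq2). Of 15 tuft cell markers 8 were tested, and Ptgs1, Dclk1 and Cd24a were called higher, the last of which is also a marker of the sort. Ptgs1, with 0 and 0 reads in young and 38 and 20 in old pools, and Dclk1 passed the filter only through the old pools, so they could only come out higher. Without Cd24a the tuft list summed to 6.55 and 7.82 CPM in young and 14.6 and 9.09 CPM in old pools. Of its genes Il25 and Chat were at 0, Dclk1 had 4 and 4 reads in young and 42 and 19 in old pools, Pou2f3 had 32 and 42 against 30 and 25, and Trpm5 had 5 and 21 against 29 and 14. Goblet markers summed to 1955 and 2576 CPM in young and 2675 and 2084 CPM in old pools, with 0 of 9 called (1 at an unadjusted p under 0.05). Mast cell (8 of 10 at 0) and endothelial markers (5 of 11 at 0) had 0 called, and so had those of enteric glia (3 of 9 at 0). The part of any of these cells in the counts of the 10 genes was not tested.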

How the data were processed

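Reads of 4 SPIA libraries were trimmed with Trimmomatic 0.30, aligned with STAR 2.4.2a to GRCm38 and counted over exons of GENCODE vM15 genes with featureCounts by the authors, who deposited raw read counts per gene. Strand setting and treatment of multi-mapped reads are not given in the sources used here. Sample groups and replicate numbers came from the labels. The 10 genes and all gene lists were chosen with earlier results of these data known.

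Genes whose count exceeded 5 and whose level exceeded 1 CPM in any library were kept (13692 of 52459). Ages were compared with edgeR 4.0.16 (R 4.3.3), TMM normalization, no covariate and Benjamini-Hochberg adjustment at 0.05. Limma 3.58.1 (voom with sample quality weights), which the paper's methods name, DESeq2 1.42.0 and other settings were alternatives. The paper's own list of genes differing with age holds some that did not pass the edgeR test here. Among them are Parp1, Slc44a1, Tspan8, Axin2, Ephb2, Rnf43 and Slc12a2. Ache, which passed here, is not on that list. Fits were checked on simulated data. Standard errors came from the log2 fold change and F. Ratios of summed reads carry exact conditional binomial intervals. Replicates differed by more than sampling noise (chi-square per gene 9.42 in young and 7.11 in old pools). Each list names, beside all 10 genes and the nearest genes, its 3 genes of highest mean CPM, not divided by length, and those with FDR under 0.05. Positions, lengths and 50-nt stretches came from GENCODE vM21 (GRCm38), matched by symbol. Chromosome 18 promoters were not used. Depth was between 11662654 and 15975698 counts, and 3 counts correspond to 0.188 to 0.257 CPM. An exact permutation test of 2 against 2 pools cannot give p below 0.333, and none was run.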

Additional observations from a re-analysis of the deposited data

How the results depend on the processing

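The 10 genes were higher in old ISCs under all 14 alternatives. Their median log2 fold change of 3.18 was 2.69 with total counts, which shifted the median of all genes by -0.50, and 3.11 to 3.34 with 1 pool left out. By DESeq2 6 of the 10 had FDR under 0.05, by voom 7, and with total counts or filterByExpr 9, counts that rest on the values by which the genes were chosen and are no measure of stability. Voom gave 5.59 for P2rx7 and 3.53 for Gad2, and a prior count of 2 gave 4.13 for P2rx7 and 4.02 for Ddr2. Without 1 pool the lone pool of that age is assumed to vary like the other age.

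Genes called higher numbered 223, and 96 with total counts, 357 without a filter, 375 by the likelihood ratio test, 147 by DESeq2, 407 with the replicate block and 123 to 478 with 1 pool left out. Genes called lower numbered 86, and 4554, 197, 236, 50 and 216 in the same order, and 28 to 250. Of the related genes 3 were called, all higher. With total counts 26 were called, all lower and none of them among the 3. The count was 6 without a filter, 7 by the likelihood ratio test, 6 with the replicate block and 0 to 10 with 1 pool left out. Of the nearest genes 1 was called, and 7 with total counts, 2 by the likelihood ratio test, 2 with the replicate block and 1 to 4 with 1 pool left out. These alternatives for the nearest genes were chosen after seeing the data. The cause of these differences was not tested, apart from the shift under total counts. Same-numbered pools are different animals, and the correlation of their deviations was -0.0031 over 13692 genes. Genes with few reads weigh as much as others in that value, so it cannot show whether same-numbered pools share a preparation.

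With total counts the sign turned for Pycard (-0.16), P2ry1 (-0.39), Itga2 (-0.41), Itgb1 (-0.47), Aldh5a1 (-0.40), Abat (-0.32), Ceacam1 (-0.0047), Flrt3 (-0.28), Tspan8 (-0.11), Tspan3 (-0.34), Tnks2 (-0.24), Zc3hav1 (-0.36) and Slc44a1 (-0.12). With 1 pool left out Itga1 ran from -0.24 to 0.089, Itgb1 from -0.19 to 0.21, Tspan3 from -0.085 to 0.36 and P2rx4 from -0.40 to 0.10. The count profile was met by 122 genes (84 to 411 with 1 pool left out, 29 with the ratio required). Its mirror image was met by 540 (298 to 905, 33 with the ratio, 1243 with libraries scaled by total counts to the smallest). Depth limits the smallest values: with 2 to 21 reads over both young pools, 8 of the 10 differences have wide counting intervals. The spread between pools comes on top of these.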
